A study of Mus musculus with 12 samples.

Results

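The PLZF programme of innate-like T cells is described here through 10 genes in 12 thymic lymphomas of mice: Zbtb16, Tbx21, Eomes, Maf, Id2, Il18r1, Il18rap, Il12rb2, Cxcr6 and Blk. They were found by symbol among the 37991 rows of the count table, and all 10 had a row and passed the filter on low counts, as did 18612 genes in all. The genes were chosen by their CPM in these 12 tumours, several being high in some responders only, so the difference between the groups is given for them as a description, without a test. Each tumour is 1 RNA-seq library. There were 4 non-responder tumours, which had not responded to restoration of p53 as judged by magnetic resonance imaging, and 8 responder tumours, which had. All 12 mice were C57BL/6 of the genotype p53neo/R172H;R26CreER/GNZ, so every tumour also carried a mutant p53 allele, and all received weekly intraperitoneal tamoxifen to activate Cre recombinase and so wild-type p53. Tumours were frozen after the last scan, so each profile was taken after p53 had been restored. Age, tumour size, sort or batch is not given in the sources used here.

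PLZF, the product of Zbtb16, is a BTB and zinc-finger transcription factor that gives natural killer T (NKT) cells, mucosal-associated invariant T (MAIT) cells and some gamma delta T cells their ready-made effector state during development in the thymus. Such cells carry receptors for interleukin 12 (IL-12) and interleukin 18 (IL-18) and can release cytokines when these signals reach them. They split into subsets, of which the T-box factors T-bet (Tbx21) and eomesodermin (Eomes) mark the type that makes interferon gamma, while c-MAF (Maf) belongs to the types that make interleukin 17 or follicular helper cytokines. Conventional cortical thymocytes, the cells that rearrange the T-cell receptor with the Rag recombinase, lack this programme.

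The libraries held 20796860 to 30265753 counts. Levels are given as CPM, that is counts over the library size after TMM scaling, and a log2 fold change is non-responder minus responder. The 10 T-cell markers were detected in every tumour and summed to between 2319 and 3098 CPM in non-responders and between 846 and 2678 CPM in responders, with the lowest sum in responder 4. Rag1 was at 168 to 1756 CPM in the 4 non-responders and at 895 to 1262 CPM in responders 1 to 3, but at 0.410 to 2.91 CPM in responders 4 to 8. In whole tumours, fewer cells of a type and less RNA per cell cannot be told apart. In the transcriptome-wide edgeR test of non-responders against responders, 0% of 18612 genes passed an adjusted p under 0.05, while 4428 had an unadjusted p under 0.05. The CPM of the groups did not overlap for 2.13% of genes, and for 0 of the 10 members. Of the members 9 had a lower and 1 a higher fitted level in non-responders, with a median log2 fold change of -3.95, where the median of all genes was -0.02; this follows from how the members were chosen.

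Zbtb16 itself covered the widest span among the transcription factors. It was at 1.84, 2.45, 26.9 and 3.13 CPM in non-responders 1 to 4. In responders the lowest value was 1.01, the median 102 and the highest 378 CPM. Responders 4, 5 and 6 stood at 331, 336 and 378 CPM, responder 8 at 174 CPM and responder 7 at 29.99 CPM, whereas responders 1, 2 and 3 were at 9.20, 1.27 and 1.01 CPM. The groups therefore overlapped at the low end, since responders 2 and 3 lay below every non-responder and 5 responders lay above all 4. The mean was 8.57 ± 12.2 CPM in non-responders (SD, n = 4) and 158 ± 168 CPM in responders (SD, n = 8). In the edgeR fit the log2 fold change was -4.20 (SE 1.66), and it was -5.96 without non-responder 3. Read counts behind these levels ran from 24 to 11112. Zbtb16 (ENSMUSG00000066687) lies on the reverse strand of chromosome 9 from 48654297 to 48836222 (GRCm38, GENCODE M21), and no other annotated exon overlaps its exons.

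Non-responder 3 stood apart within its group for Zbtb16 and for 3 other members. Its Il18r1 level was 9.43 CPM, against 1.32 to 1.70 CPM in the other 3 non-responders, its Il18rap 4.23 CPM and its Cxcr6 6.44 CPM. These values remained under those of responders 1 and 4 to 8 for all 3 receptor genes. The summed level of 8 macrophage markers was highest of all 12 tumours in non-responder 3, at 3313 CPM, against 1079 to 1359 CPM in the other 3 non-responders and 830 to 3279 CPM in responders. Lyz2 gave 1934 CPM of the sum in non-responder 3. Adgre1, at 40.8 CPM there, was below its levels in non-responders 1 and 4, at 67.6 and 46.9 CPM. The other macrophage markers were highest among non-responders in non-responder 3. The sums of this tumour for B-cell and NK-cell markers, 210 and 5.11 CPM, were the lowest among non-responders. The part of these cells in the 4 values was not tested.

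The T-box factors went separate ways. Tbx21, which encodes T-bet, was at 1.19, 2.75, 7.73 and 15.1 CPM in non-responders 1 to 4, and its lowest, median and highest levels in responders were 2.82, 7.12 and 19.4 CPM. Both groups thus covered nearly the same range. The log2 fold change was -0.31 (SE 0.64), which became 0.042 without non-responder 1 and -1.09 without non-responder 4. Eomes was at 1.24, 2.60, 1.33 and 0.272 CPM in non-responders and had a lowest, median and highest level of 0.329, 4.68 and 73.9 CPM in responders. Responders 7 and 8, at 73.9 and 69.3 CPM, held far more Eomes than any other tumour, of which responder 6 came next with 11.2 CPM. The log2 fold change was -3.95 (SE 1.45), or -3.32 without responder 7 and -3.19 in limma-voom. In responders 7 and 8 the level of Eomes was 6.48 and 3.58 times that of Tbx21, and in responders 4 to 6 it was 0.760 to 1.71 times. Responders 4 to 8 thus held the highest levels of both Zbtb16 and Eomes, but in a different order. Responders 4, 5 and 6 led in Zbtb16, and responders 7 and 8 in Eomes. Both T-box factors are also made by NK cells, and the 8 NK-cell markers summed to 77.7 and 149 CPM in responders 7 and 8. Of these markers Klrd1, a lectin receptor gene, stood at 32.9 and 131 CPM in responders 7 and 8, and Nkg7, of cytotoxic granules, at 29.2 and 13.8 CPM, while Ncr1 was at 0.149 CPM in responder 7 and had 0 counts in responder 8. Across all tumours the NK-cell sum was 5.11 to 21.3 CPM in non-responders and 3.67 to 149 CPM in responders, and the part of NK cells in the Eomes levels was not tested. Tbx21 lies on chromosome 11 (97098071 to 97115331, reverse strand) and Eomes on chromosome 9 (118478212 to 118486132, forward strand), where 118 of its exon bases overlap a predicted gene on the opposite strand.

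Maf and Id2 were present in every tumour. Maf, which encodes c-MAF, was at 15.3, 17.1, 22.3 and 10.8 CPM in non-responders, and its lowest, median and highest levels in responders were 13.2, 32.0 and 173 CPM. Responders 4, 5 and 6 were highest, at 173, 128 and 90.6 CPM, while responder 8, with 20.9 CPM, lay among the non-responders. The same 3 tumours had the most Zbtb16, but responder 8, next in Zbtb16, did not stand out in Maf. Its log2 fold change was -1.95 (SE 0.72). Macrophages also express Maf; their marker sum was 1079 to 3313 CPM in non-responders and 830 to 3279 CPM in responders, and their part in the Maf levels was not tested. Maf lies on chromosome 8 (115682942 to 115707794, reverse strand), and a predicted gene that shares 440 of its exon bases had 0 counts in all 12 tumours. Id2 encodes an inhibitor that binds E proteins and is needed for NKT and innate lymphoid cells. It was at 18.8, 63.7, 38.2 and 31.8 CPM in non-responders and at 15.4, 47.1 and 199 CPM (lowest, median and highest) in responders. The groups overlapped over most of their ranges, with responder 4 alone far above, at 199 CPM against 82.0 CPM in responder 1, the next highest. Its log2 fold change was -0.79 (SE 0.57) and -0.30 without responder 4. Id2 lies on chromosome 12 (25093799 to 25097140, reverse strand).

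**Figure D1:**
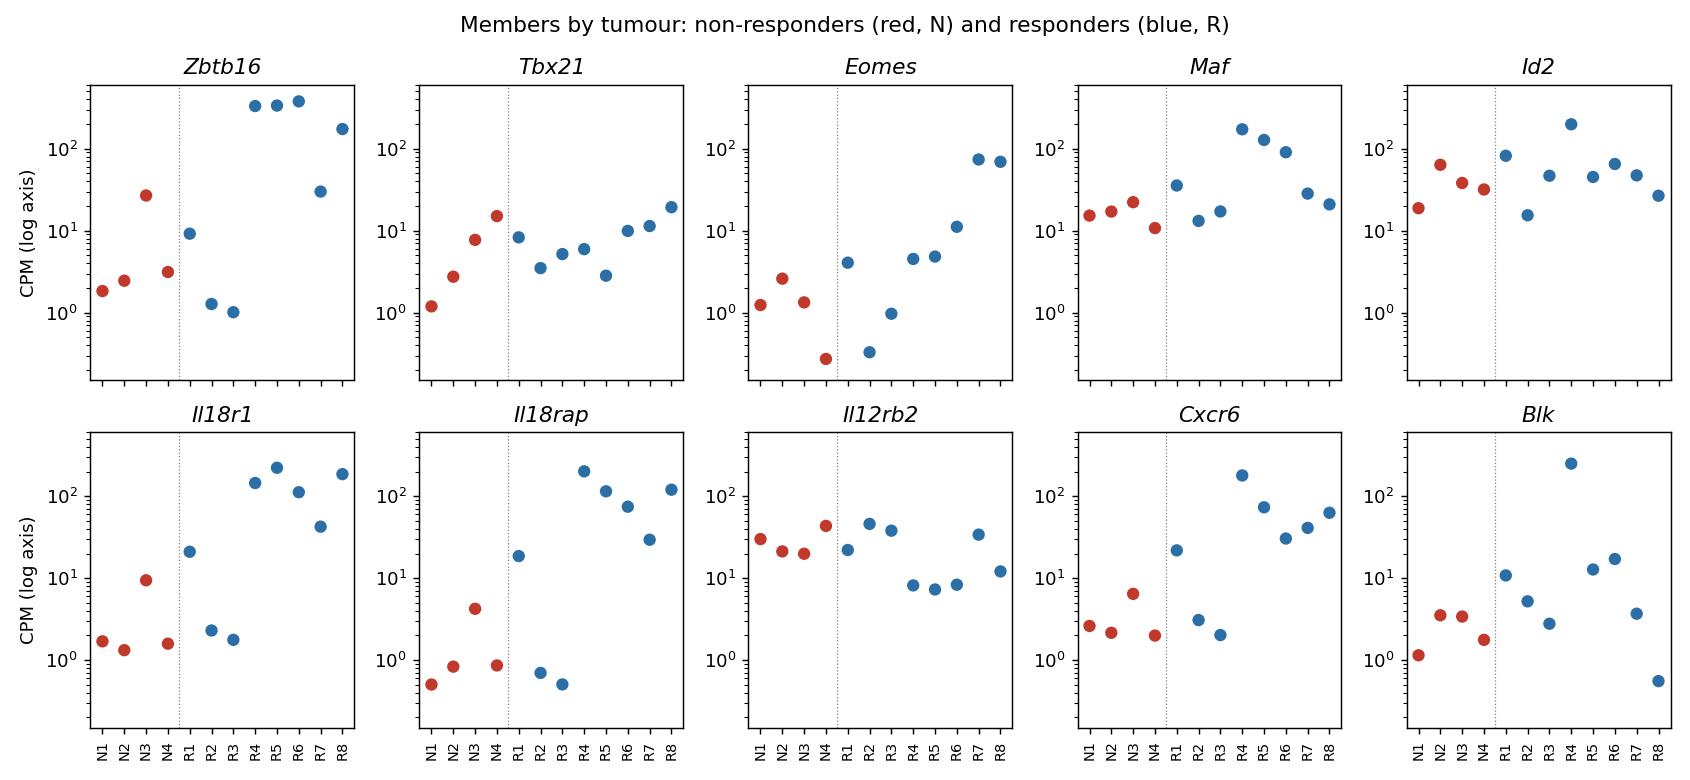
Level of each of the 10 members in every tumour, in CPM on a log axis; each point is 1 library, with non-responders N1 to N4 in red on the left and responders R1 to R8 in blue on the right of the dotted line. Zbtb16, Il18r1, Il18rap and Cxcr6 were highest in R4 to R8, Eomes in R7 and R8, and Il12rb2 was lowest in R4, R5, R6 and R8.

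The IL-18 receptor pair was higher in 6 of 8 responders than in any non-responder. Il18r1 encodes the chain that binds IL-18 and Il18rap the accessory chain that completes the signalling receptor, and both lie on the forward strand of chromosome 1 (40465552 to 40500854 and 40515362 to 40551705). Il18r1 was at 1.70, 1.32, 9.43 and 1.59 CPM in non-responders, and at 1.77, 77.3 and 222 CPM (lowest, median and highest) in responders. Responders 4 to 8 stood at 145, 222, 112, 42.5 and 186 CPM, responder 1 at 21.0 CPM, and responders 2 and 3 at 2.30 and 1.77 CPM, inside the range of the non-responders. Il18rap was at 0.505, 0.834, 4.23 and 0.863 CPM in non-responders, and at 0.506, 52.0 and 201 CPM (lowest, median and highest) in responders. Its order was much the same, with 201, 115, 74.5, 29.5 and 120 CPM in responders 4 to 8 and 18.6 CPM in responder 1. For both genes 6 of 8 responders lay above every non-responder. The log2 fold changes were -4.70 (SE 1.36) for Il18r1 and -5.44 (SE 1.55) for Il18rap, and -5.86 and -6.54 without non-responder 3. The ratio of Il18rap to Il18r1 in CPM was 0.297 to 0.630 in non-responders and 0.286 to 1.39 in responders, with the highest in responder 4. Neutrophils can carry this receptor. Their marker sum was 7.98 to 24.8 CPM in non-responders, and 8 of 8 markers were lower on average in that group. In responders 1 to 8 the sum was 251, 29.5, 28.6, 241, 455, 689, 113 and 25.3 CPM. The part of neutrophils in the levels of the receptor pair was not tested.

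The IL-12 receptor chain Il12rb2, which recruits STAT4, was the member that ran the other way. It was at 30.01, 21.2, 19.9 and 43.5 CPM in non-responders, and its lowest, median and highest levels in responders were 7.29, 17.1 and 46.0 CPM. Responders 4, 5, 6 and 8, at 8.17, 7.29, 8.34 and 12.1 CPM, lay below every non-responder, whereas responders 2 and 3, at 46.0 and 38.0 CPM, were among the highest of all. Between the groups it differed by 0.38 on the log2 scale (SE 0.51). Il12rb2 (chromosome 6, 67291318 to 67376188, reverse strand) shares 1519 exon bases with Serbp1 on the opposite strand. Serbp1, which encodes an mRNA-binding protein, was at 648 to 1000 CPM in non-responders and 528 to 1008 CPM in responders. The strand setting of the counts is unknown. The Il12rb2 level may therefore hold reads of Serbp1, or reads over the shared bases may have been left out.

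Promoter sequences of these 3 receptor genes are printed because Il18r1 and Il18rap ordered the tumours almost alike while Il12rb2 ordered them nearly in reverse. Each runs 5′ to 3′ on the strand of its gene, from 250 bases before to 50 bases after the start, in the RefSeq table for GRCm38.p6. Capitals mark matches to the motifs that were searched on both strands.
Il18r1, chr1:40465302-40465601, forward strand: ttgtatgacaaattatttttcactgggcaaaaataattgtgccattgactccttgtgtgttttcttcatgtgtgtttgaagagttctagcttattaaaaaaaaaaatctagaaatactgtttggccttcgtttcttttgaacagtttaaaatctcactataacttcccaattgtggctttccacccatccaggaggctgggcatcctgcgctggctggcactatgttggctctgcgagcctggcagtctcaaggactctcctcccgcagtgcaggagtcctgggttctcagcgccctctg
Il18rap, chr1:40515112-40515411, forward strand: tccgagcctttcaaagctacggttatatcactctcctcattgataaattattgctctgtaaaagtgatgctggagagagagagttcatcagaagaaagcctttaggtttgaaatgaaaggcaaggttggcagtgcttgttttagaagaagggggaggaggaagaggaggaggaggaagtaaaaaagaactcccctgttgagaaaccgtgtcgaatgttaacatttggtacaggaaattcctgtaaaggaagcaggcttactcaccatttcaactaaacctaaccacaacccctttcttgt
Il12rb2, chr6:67376139-67376438, reverse strand: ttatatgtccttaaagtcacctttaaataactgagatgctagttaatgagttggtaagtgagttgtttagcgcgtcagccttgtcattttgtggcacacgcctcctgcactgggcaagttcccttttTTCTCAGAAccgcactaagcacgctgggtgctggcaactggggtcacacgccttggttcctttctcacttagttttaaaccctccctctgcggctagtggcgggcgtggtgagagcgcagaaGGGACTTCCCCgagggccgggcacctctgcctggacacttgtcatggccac
The motifs were GGTGTGA for T-box factors, GCGTGGGC for EGR factors, TTCNNNGAA for STAT factors and TGCTGAC for MAF factors, with the kappa B motif of NF-kB beside them. None of them occurred in the Il18r1 or Il18rap window. The Il12rb2 window held TTCTCAGAA, a STAT match, 123 bases before the start, and overlapping NF-kB matches at the start itself. Of 7 members with a promoter in the table, 1 held the STAT motif and 2, Il12rb2 and Tbx21, the NF-kB motif. These motifs were found in 8.30% and 50.8% of all 32851 promoters of the same length. The T-box, EGR and MAF motifs were in 0 of the 7 windows and in 3.98%, 1.63% and 4.67% of all promoters.

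Cxcr6, the receptor for the membrane-bound chemokine CXCL16 and a homing receptor of NKT cells, lies on chromosome 9 (123806475 to 123811760, forward strand). It was at 2.62, 2.16, 6.44 and 1.997 CPM in non-responders, and at 2.02, 35.8 and 179 CPM (lowest, median and highest) in responders. Responders 4 to 8 stood at 179, 73.3, 30.5, 41.1 and 62.8 CPM and responder 1 at 21.9 CPM. Again 6 of 8 responders were above all non-responders, while responders 2 and 3 were not. On the log2 scale the difference was -3.97 (SE 1.10), or -3.34 without responder 4. Its ligand gene Cxcl16 was at 17.8, 15.4, 32.5 and 17.2 CPM in non-responders and at 15.9 to 59.4 CPM in responders (log2 fold change -0.64 ± 0.36 SE, adjusted p = 0.292 by edgeR). Adam10 and Adam17, which encode proteases that shed CXCL16, differed by -0.10 (± 0.19 SE, adjusted p = 0.783 by edgeR) and 0.15 (± 0.15 SE, adjusted p = 0.561 by edgeR) on the log2 scale.

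Blk, a Src-family kinase gene known from B cells and from gamma delta T cells that make interleukin 17, was far higher in 1 tumour than in any other. It lies on chromosome 14 (63372836 to 63417037, reverse strand). It was at 1.15, 3.53, 3.40 and 1.77 CPM in non-responders, and at 0.555, 8.02 and 250 CPM (lowest, median and highest) in responders. Responder 4 held 250 CPM, against 17.1 CPM in responder 6, the next highest, and responder 8 was the lowest of all 12 tumours. For Blk too, 6 of 8 responders lay above every non-responder. The log2 fold change was -3.94 (SE 1.55), which became -1.62 without responder 4. It was -1.54 in DESeq2 and -1.88 in limma-voom with quality weights. B-cell markers overlapped between the groups, though the means of 9 of 9 measured markers were lower in non-responders. Their sum was 210 to 586 CPM in non-responders and 203 to 3537 CPM in responders, with the maximum in responder 4, where the immunoglobulin gene Ighm alone was at 3281 CPM. In responders 2, 3, 7 and 8 the B-cell sum was 361, 203, 322 and 405 CPM, not above the highest non-responder. The part of B cells in the Blk levels was not tested.

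Levels of different genes were compared per kilobase (kb) of exon. For Il12rb2 all 3794 exon bases were used, with the 1519 shared with Serbp1 among them. The 10 members together reached 20.8 to 39.3 CPM per kb in non-responders and 25.9 to 416 CPM per kb in responders, with responder 4 highest. In non-responders Id2 and Il12rb2 were the leading pair in all 4 tumours and made up 53.2% to 81.7% of that sum. They also led in responders 2 and 3, with 71.3% and 80.4%. Their share was 54.6% in responder 1 and 29.6% in responder 7. In responders 4, 5, 6 and 8 they made up 8.67% to 20.1%. The leading gene differed among these tumours. Zbtb16 led in responders 5 and 6, at 63.6 and 71.6 CPM per kb. Cxcr6 led in responders 4 and 7, at 92.8 and 21.3 CPM per kb, and in responder 4 Blk was level with it at 92.7 CPM per kb. Il18r1 led in responder 8, at 38.6 CPM per kb, followed by Zbtb16 at 32.9 CPM per kb. In responder 7 Eomes came after Cxcr6 and Id2, at 17.8 CPM per kb. Each of these levels comes from 1 library, so the order within a tumour has no replicate error.

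**Figure D2:**
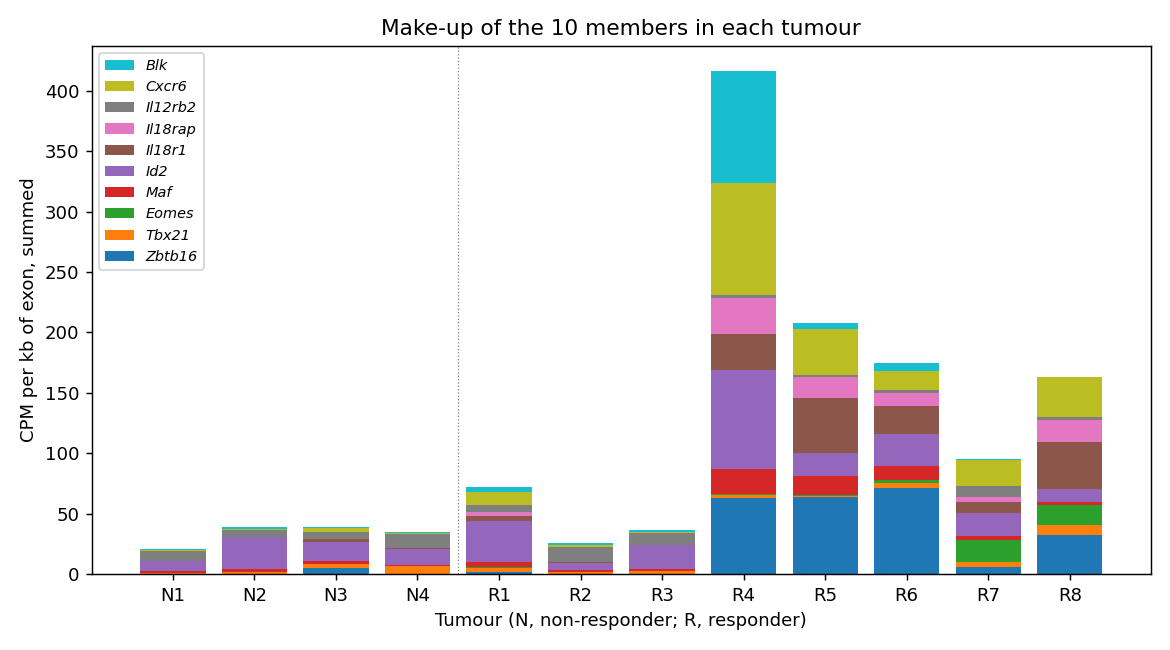
Level of the 10 members per kb of exon, stacked for each tumour; the y axis is CPM per kb and the x axis lists non-responders N1 to N4, then responders R1 to R8. The stack was 20.8 to 39.3 CPM per kb in N1 to N4 and 25.9 to 416 CPM per kb in R1 to R8, and it was made mostly of Id2 and Il12rb2 where it was low.

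The members' spread over the tumours is part of how they were chosen and is given as a description. The SD of log2 CPM over the 4 non-responders and the 8 responders was 1.74 and 3.57 for Zbtb16, 1.26 and 3.29 for Il18rap, 1.29 and 2.77 for Il18r1 and 0.76 and 2.22 for Cxcr6. It was 1.23 and 2.62 for Eomes, 0.75 and 2.50 for Blk, 0.43 and 1.40 for Maf, 0.52 and 1.09 for Il12rb2 and 0.72 and 1.09 for Id2. For the median gene tested it was 0.45 in non-responders and 0.55 in responders. Tbx21 alone among the members varied less in responders, at 1.58 in non-responders and 0.91 in responders.

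The members fell into sets by how they ordered the 12 tumours. Likeness was measured as the mean absolute difference in rank between a pair of genes, where 0 means the same order of the tumours. The closest of the 45 pairs were Il18r1 with Cxcr6 at 1, Il18rap with Cxcr6 at 1.17 and Zbtb16 with Il18rap at 1.17. Maf lay at 1.5 to 1.67 from Zbtb16, Cxcr6 and both IL-18 receptor genes. Eomes lay at 2 from Zbtb16 and 3 from Tbx21. Blk was nearest to Maf and Id2, at 1.83 and 2. Il12rb2 lay at 4 or more from each of the other members and at 5.67 from Zbtb16. The median over all genes was 3.83 from Zbtb16 and the highest value was 6. These values describe the same 12 libraries on which the members were chosen.

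**Figure D3:**
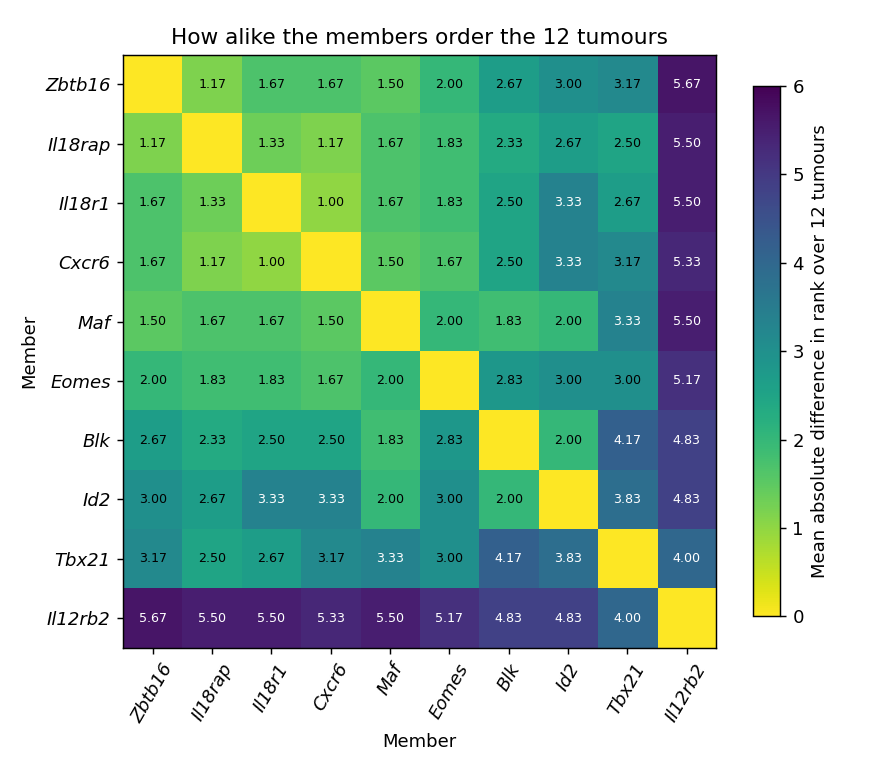
Mean absolute difference in rank over the 12 tumours for each pair of members, printed in each cell and shown by colour from 0 (same order) to 6. Zbtb16, Il18rap, Il18r1, Cxcr6 and Maf lay within 1.67 of each other, and Il12rb2 lay at 4 or more from every other member.

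Outside the list, the 8 named genes that ordered the tumours most like Zbtb16 were at 0.5 to 1 from it. Slc25a45, of the mitochondrial carrier family, was nearest at 0.5 and stood at 10.3 to 14.4 CPM in non-responders and 5.95 to 31.4 CPM in responders. Sh3bp5 was at 0.67, with 16.5 to 22.0 CPM in non-responders and 14.1 to 57.3 CPM in responders. H2-Oa, a chain of the MHC class II modulator H2-O, the potassium channel gene Kcnj15, the transketolase relative Tktl1 and Fam129a were each at 0.83. Fam129a covered 13.6 to 34.5 CPM in non-responders and 12.8 to 216 CPM in responders. Tktl1 was only at 0.138 to 0.276 CPM in non-responders and 0.0422 to 0.781 CPM in responders, so its order rests on few reads. Itgae, which encodes the CD103 integrin chain of lymphocytes in epithelia, and Rabep2, of vesicle transport, were at 1. Itgae stood at 9.13 to 10.3 CPM in non-responders and at 284 and 311 CPM in responders 4 and 5, but at 23.1 CPM in responder 8. Il18rap, the closest member, had 42 genes nearer to Zbtb16 than itself, and Il18r1 and Cxcr6 had 632.

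Genes listed for the IL-12 and IL-18 pathway, with some related receptors, were mostly lower in non-responders without passing the adjusted threshold. Of 16 listed genes, all past the filter, edgeR called 0 at an adjusted p under 0.05. At an unadjusted p under 0.05, 7 were lower and 0 higher in non-responders, that is 43.8% lower where 16.1% of all genes were lower and 7.73% higher. DESeq2 called 3 of the 16, where it called 13.3% of all genes, and limma-voom called 1, where it called 8.85%. The median log2 fold change of the list was -0.74, against -0.02 over all genes tested. The list also holds Il1r1, Il1rl1 and Il1rap, receptor genes of the wider interleukin 1 family. Il1r1 and Il1rl1 were among the 7 lower genes (unadjusted p = 0.0312 and 0.00294 by edgeR). Il1rl1 was also among the 3 that DESeq2 called. The shares are therefore not those of IL-12 and IL-18 genes alone. The list was chosen with earlier results of these data known, so its shares are a description. Stat4, the factor that IL-12 activates, was at 8.17, 2.55, 3.82 and 5.22 CPM in non-responders and at 2.53, 37.1 and 78.9 CPM (lowest, median and highest) in responders. Responders 4, 5, 7 and 8 held 46.2 to 78.9 CPM of Stat4, while responder 6 had 13.5 CPM. Its log2 fold change was -2.97 (± 0.80 SE, adjusted p = 0.117 by edgeR), and it passed in DESeq2 (adjusted p = 0.00117) but not in limma-voom (adjusted p = 0.0566). Il12rb1, the chain that IL-12 and interleukin 23 receptors share, was at 7.81 to 30.5 CPM in non-responders and 10.98 to 64.2 CPM in responders (log2 fold change -1.21 ± 0.51 SE, adjusted p = 0.175 by edgeR). The ligand gene Il18 was at 8.74 CPM in non-responder 3, against 0.999 to 1.86 CPM in the other non-responders, and at 1.10 to 11.4 CPM in responders. Its log2 fold change was -1.21 (± 0.75 SE, adjusted p = 0.340 by edgeR), and -2.47 without non-responder 3. Il12a and Il12b, the chains of IL-12, stayed at or under 1.65 CPM in non-responders and 4.32 CPM in responders (log2 fold changes -1.03 and -2.03, edgeR adjusted p = 0.278 and 0.117). Dendritic cells make IL-12, and the sum of their 7 markers was 18.6 to 35.4 CPM in non-responders and 19.995 to 116 CPM in responders, with 7 of 7 lower on average in non-responders; their part in these values was not tested.

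Genes of the effector subsets were also mostly lower on average in non-responders, with a median log2 fold change of -1.89. Of 15 listed genes, all past the filter, edgeR called 0 at an adjusted p under 0.05, and 10 (66.7%) were lower and 0 higher in non-responders at an unadjusted p under 0.05, against 16.1% and 7.73% of all genes. DESeq2 called 9 (60%, against 13.3% of all genes) and limma-voom 5 (33.3%, against 8.85%). Earlier results of these data were known when this list was chosen, so its shares too are a description. Marker means of other cells were lower in non-responders too, for 7 of 8 NK-cell, 9 of 9 B-cell, 7 of 7 dendritic-cell and 8 of 8 neutrophil markers. The same held for 6 of 8 macrophage and 3 of 5 gamma delta markers, but for only 1 of 10 T-cell and 0 of 6 cortical thymocyte markers. The part of these cells in the list's values was not tested. Icos, a costimulatory receptor of NKT and helper T cells, was at 22.3, 8.68, 26.9 and 3.22 CPM in non-responders and at 5.82, 130 and 365 CPM (lowest, median and highest) in responders (log2 fold change -3.26 ± 1.04 SE, adjusted p = 0.118 by edgeR). Responders 4 to 8 all held 101 CPM of Icos or more. Responder 1 was at 39.4 CPM, and responders 2 and 3, at 18.2 and 5.82 CPM, lay within the range of the non-responders. Klrb1c, which encodes the NK1.1 antigen of NK and NKT cells, was at 0.0918 to 0.834 CPM in non-responders and 0.506 to 14.9 CPM in responders (log2 fold change -3.81 ± 1.12 SE, adjusted p = 0.117 by edgeR; -4.46 without non-responder 2). Responders 7 and 8, the Eomes-high pair, had 2.38 and 0.516 CPM of Klrb1c, and responders 4 and 6 had 12.1 and 14.9 CPM. Gata3 differed by 0.21 (± 0.33 SE, adjusted p = 0.717 by edgeR) and Il17rb by 0.40 (± 0.54 SE, adjusted p = 0.674 by edgeR).

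Of the cytokines these cells can release, Ifng, Il4 and Il17a did not pass the filter on low counts. Ifng was at 0.147 CPM or less in non-responders and at 0.878 CPM or less in responders other than responder 1, which held 6.33 CPM. The NK-cell marker sum of responder 1 was 72.4 CPM, below the 77.7 and 149 CPM of responders 7 and 8. Klrd1 gave 14.7 CPM of the sum in responder 1, but 32.9 and 131 CPM in responders 7 and 8. Ncr1, Klre1 and Klra8 were highest of all tumours in responder 1, at 1.32, 5.65 and 5.09 CPM. The part of NK cells in the Ifng level was not tested. Il4 was at 0.229 CPM or less in non-responders and reached 2.31 and 4.08 CPM in responders 4 and 6. Il17a had its highest level, 1.53 CPM, in responder 4. Il13 was at 0.136 to 0.505 CPM in non-responders and 0.0422 to 5.69 CPM in responders (log2 fold change -2.92 ± 1.05 SE, adjusted p = 0.134 by edgeR). Tnf was at 4.56 to 10.7 CPM in non-responders and 5.26 to 37.2 CPM in responders (log2 fold change -1.28 ± 0.52 SE, adjusted p = 0.164 by edgeR). Of the 13 cytokine genes 6 passed the filter, and 1, the chemokine gene Xcl1, did not overlap between groups, where 2.13% of all genes did not. It rested on 1 or 2 reads in each non-responder and 3 to 407 reads in responders, so the lowest responder lay within 1 read of the highest non-responder. Xcl1 is named here after its values were seen.

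Genes that act upstream of PLZF passed the thresholds at shares near those of all genes. Of 16 listed, 2 (12.5%) were lower and 1 (6.25%) higher in non-responders at an unadjusted p under 0.05, where 16.1% and 7.73% of all genes were. At an adjusted p under 0.05 edgeR called 0, DESeq2 2 (12.5%, against 13.3% of all genes) and limma-voom 0 (against 8.85%). The median log2 fold change was 0.17. Egr2, a direct activator of Zbtb16 downstream of the T-cell receptor, was at 6.52, 1.67, 1.38 and 2.27 CPM in non-responders and at 1.01, 7.01 and 13.3 CPM (lowest, median and highest) in responders (log2 fold change -1.27 ± 0.62 SE, adjusted p = 0.230 by edgeR; -1.999 without non-responder 1). Slamf6 and Sh2d1a, the receptor and adaptor that select NKT cells, were present in every tumour. Slamf6 was at 65.5 to 320 CPM in non-responders and 15.6 to 215 CPM in responders, the lowest in responder 4, whose Zbtb16 level was 331 CPM. Sh2d1a was at 53.01 to 272 CPM in non-responders and 29.3 to 150 CPM in responders. Runx1 was at 86.9 to 182 CPM in non-responders, and at 20.2 to 48.5 CPM in responders 4 to 8 but 98.2 to 281 CPM in responders 1 to 3 (log2 fold change 0.57 ± 0.64 SE, adjusted p = 0.606 by edgeR; 1.52 in limma-voom). Hivep3 showed a log2 fold change of 0.10 (± 0.9965 SE, adjusted p = 0.961 by edgeR), with 388 CPM in responder 3; without it the value was 1.25, and in limma-voom 1.20.

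**Figure D4:**
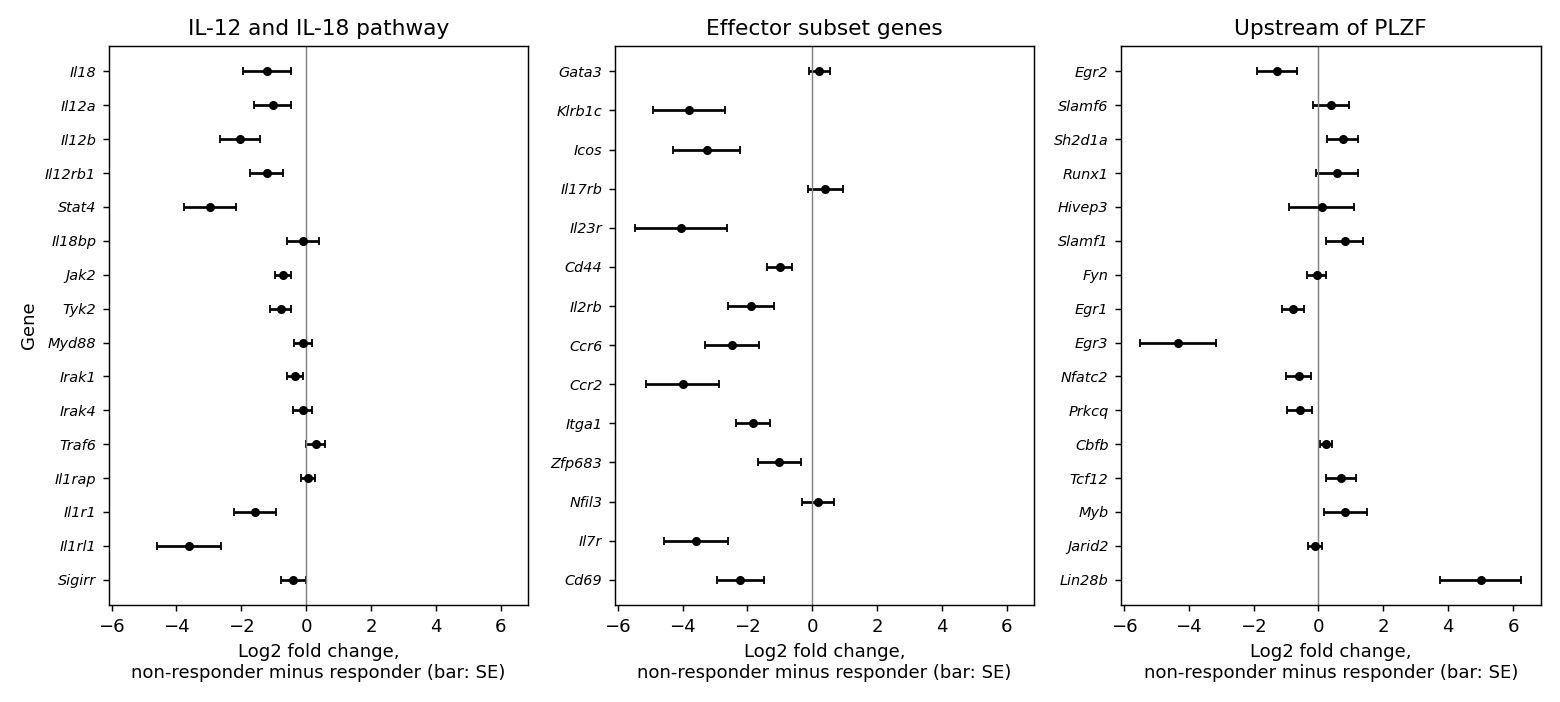
Log2 fold change of genes of 3 lists, non-responder minus responder on the x axis, with 1 SE as the bar; genes run down the y axis in the order listed and all come from 1 edgeR fit over 4 non-responders and 8 responders. Of the IL-12 and IL-18 pathway list, which includes Il1r1, Il1rl1 and Il1rap, 14 of 16 genes lay below 0. So did 11 of the 14 subset genes drawn and 7 of 16 genes upstream of PLZF. None passed an edgeR adjusted p under 0.05.

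Among 15 partners and relatives of PLZF, 1 (6.67%) was lower and 2 (13.3%) were higher in non-responders at an unadjusted p under 0.05, where 16.1% and 7.73% of all genes were. At an adjusted p under 0.05 edgeR called 0, DESeq2 2 (13.3%, the share of all genes) and limma-voom 1 (6.67%, against 8.85%). Cul3, the ubiquitin ligase scaffold that PLZF brings to the nucleus of NKT cells, was at 246 to 353 CPM in non-responders and 163 to 328 CPM in responders (log2 fold change 0.44 ± 0.20 SE, adjusted p = 0.196 by edgeR). The corepressor genes Ncor1 and Bcor differed by -0.04 (SE 0.16) and 0.22 (SE 0.23), with edgeR adjusted p of 0.897 and 0.572. Zbtb7b, which encodes the helper-lineage factor ThPOK that NKT cells also use, was at 3.59 to 8.60 CPM in non-responders and 3.45 to 59.6 CPM in responders (log2 fold change -1.92 ± 0.75 SE, adjusted p = 0.155 by edgeR). Responders 4 and 6 had the most, 59.6 and 48.9 CPM. The E-protein gene Tcf3 was at 119 to 222 CPM in non-responders and 46.5 to 161 CPM in responders (log2 fold change 0.71 ± 0.31 SE, adjusted p = 0.187 by edgeR). Id3, the relative of Id2, was at 15.4 to 43.6 CPM in non-responders and 16.3 to 64.3 CPM in responders (log2 fold change -0.45 ± 0.40 SE, adjusted p = 0.508 by edgeR). Id4 was at 0.459 CPM or less in non-responders and 0.329 to 7.91 CPM in responders (log2 fold change -3.21 ± 0.90 SE, adjusted p = 0.117 by edgeR), and was called by DESeq2 and limma-voom. Of the 5 ID and E-protein genes, 1 (20%) was lower and 1 (20%) higher at an unadjusted p under 0.05, against 16.1% and 7.73% of all genes. Among 10 relatives of BLK and MAF, 4 (40%) were lower and 1 (10%) higher at that threshold, against 16.1% and 7.73% of all genes. No tool called any of the 10 at an adjusted p under 0.05. These lists too were chosen with earlier results of these data known. Lck, the Src-family kinase of T cells, was at 587 to 876 CPM in non-responders and 39.8 to 821 CPM in responders, the lowest in responder 4, where Blk was highest (log2 fold change 0.91 ± 0.54 SE, adjusted p = 0.316 by edgeR).

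Receptor genes of unconventional T cells were read where the table had them. Traj18, the joining segment of the invariant NKT-cell receptor, was at 0.276 to 2.52 CPM in non-responders and 0.169 to 3.33 CPM in responders (log2 fold change -0.48 ± 0.81 SE, adjusted p = 0.749 by edgeR; -1.41 without non-responder 1). In responders 4, 5, 6 and 8, which held the most Zbtb16, it was at 1.17, 0.532, 3.33 and 0.198 CPM. Trav1, a segment of the MAIT-cell receptor, was at 0.261 CPM or less in every tumour. The gamma-chain constant gene Tcrg-C1 was at 6.38, 134, 19.5 and 0.136 CPM in non-responders and at 1.49 to 110 CPM in responders, the highest in responder 5. The 5 gamma delta markers in the table summed to 23.1 to 452 CPM in non-responders and 73.3 to 544 CPM in responders. The highest sum, in responder 7, was mostly Cd163l1, at 522 CPM. Tcrg-C1, Tcrg-C2 and Tcrg-C4 were at 1.49, 2.76 and 0.894 CPM in that tumour, the lowest of the responders. Trav11 and Trdc were not analysed here.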

How the data were processed

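RNA of 12 whole tumours was measured by RNA-seq, 4 non-responder and 8 responder, grouped by the labelled response. The authors deposited a table of whole-number counts for each Ensembl gene and tumour. Libraries were prepared from mRNA (TruSeq) and read as 75-base pairs on a HiSeq3000, per the labels' protocols. The submitters' processing notes list HTSeq and DESeq, without versions. The build is not settled, as these notes name NCBIM37 and the labels' protocols mm10. No source used here names the aligner or the strand setting. Coordinates and exon lengths are those of GENCODE M21 on GRCm38, which may differ from the annotation behind the counts.

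Symbols were matched by Ensembl identifier for 32919 of 37991 rows. Genes were filtered with filterByExpr, which left 18612, scaled by TMM and tested with edgeR 4.0.16 (R 4.3.3) by the robust quasi-likelihood F test with Benjamini-Hochberg adjustment at 0.05, two-sided, with group as the sole term. Log2 CPM used a prior count of 2, and the SE comes from the F statistic. The procedure was tested on simulated data. DESeq2 1.42.0, limma-voom (limma 3.58.1) with quality weights, a fit without a filter, a non-robust fit, scaling by RLE or upper quartile, total-count CPM and each tumour left out were alternatives. The series' design text calls the tumours independent biological samples. No molecular identifiers are named, so no counting interval is given.

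Members and lists were chosen with earlier results of these data known. Named are all members, the 8 genes nearest Zbtb16 in rank (predicted genes passed over), the first 5 of each list as written, all 3 of the CXCR6 axis, and markers. Some genes of these lists are not reported here by name; counts and sums over a list include them.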

Additional observations from a re-analysis of the deposited data

Results flagged for a closer look

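A value was set apart when its gap to the nearest tumour of its group, divided by the range of the group, passed Dixon's 95% value (0.829 for 4 tumours, 0.526 for 8). Over 57 genes this was asked of 114 groups and 20 values passed. Chance flags about 1 in 20 groups, but the members were chosen for being high in part of the tumours, so their values are listed as a description and the number is not read against chance.

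In non-responder 3, Zbtb16 at 26.9, Il18r1 at 9.43, Il18rap at 4.23 and Cxcr6 at 6.44 CPM lay far above the other non-responders, whose highest values were 3.13, 1.70, 0.863 and 2.62 CPM. In the same tumour Il18 at 8.74, Cxcl16 at 32.5 and Kcnj15 at 12.0 CPM stood apart, against at most 1.86, 17.8 and 4.27 CPM in the other non-responders. Il17a, at 0.0460 CPM there and 0 in the other 3 non-responders, rests on a single read. The macrophage sum, made up mostly of Lyz2, was also highest in this tumour, and the part of macrophages was not tested.

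In responder 4, Blk at 250, Cxcr6 at 179, Id2 at 199, Id4 at 7.91 and Il17a at 1.53 CPM were apart from the other responders, of which the next were at 17.1, 73.3, 82.0, 3.89 and 0.238 CPM. In responder 3, Hivep3 was at 388 CPM, against 124 CPM in the next responder. Single values stood apart in other responders: Ifng at 6.33 CPM in responder 1, Tcrg-C1 at 110 CPM in responder 5, Il17rb at 141 CPM in responder 6 and Tnf at 37.2 CPM in responder 7. In non-responder 2, Tcrg-C1 was at 134 and Il17rb at 92.0 CPM.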

How the results depend on the processing

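The count of genes called at an adjusted p under 0.05 was 0 in edgeR and under RLE and upper-quartile scaling, without a filter and without robust dispersion, but 2462 in DESeq2 and 1647 in limma-voom. Leaving out single tumours gave between 0 and 5 genes: 5 without responder 3, 3 without non-responder 1 and 1 without non-responder 3. Of the 92 pathway genes past the filter edgeR called 0, with 7 higher and 31 lower at an unadjusted p under 0.05, DESeq2 21 and limma-voom 9. At an unadjusted p under 0.05 the transcriptome-wide count was 4428 and ran from 3224 to 5534 with 1 tumour left out. The cause of the gap between tools was not tested. The median log2 fold change of the members was -3.95 and ran from -4.13 to -2.48 with 1 tumour left out, the smallest change being without responder 4; it was -2.92 in DESeq2 and -2.53 in limma-voom. No paired analysis was made, because the series describes the tumours as independent biological samples and the labels give no pairs.

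Signs near 0 were unstable. Ncor1 turned to 0.011 without a filter and Tcrg-C1 to -1.50 in limma-voom. With 1 tumour left out, log2 fold changes ran from -1.09 to 0.042 for Tbx21, -0.078 to 0.65 for Slamf6, -0.044 to 1.01 for Sh2d1a, -0.80 to 1.25 for Hivep3, -0.12 to 0.048 for Ncor1, -0.18 to 0.011 for Adam10, -0.021 to 0.41 for Gata3, -0.82 to 0.042 for Id1, -0.079 to 0.44 for Tcf4 and -2.08 to 0.61 for Tcrg-C1. Of the 8 genes nearest Zbtb16, 6 were shared when Spearman's rho replaced the rank difference.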
